A study of Mus musculus with 18 samples.

Results

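The integrin and adhesion receptor genes described here were Itgae, Itgb7, Itga4, Itgb1, Itgal, Itgb2, Itgav, Itgb8 and Cd44. They were chosen by name, with earlier results of these data known. Each was read from an RNA-seq table of sorted regulatory T cells (Tregs), with the Chd8-/- libraries set against the WT libraries. The 9 genes were among 35865 genes listed under a single name, and all 9 were among the 15240 genes that passed a filter on low values and were tested.

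Integrins are heterodimers of 1 alpha and 1 beta subunit that tie a cell to its neighbours or to the matrix, so that the RNA of both partners bears on the receptors a cell can assemble. In T cells, alpha4 pairs with beta7 to bind MAdCAM-1 on gut venules and with beta1 to bind VCAM-1 and fibronectin, alphaE (CD103) pairs with beta7 to bind E-cadherin on epithelium, and alphaL pairs with beta2 as LFA-1, which binds ICAMs. AlphaV with beta8 releases active TGF-beta from its latent form, and on Tregs the latent form is held at the surface by GARP. CD44 is no integrin. It binds hyaluronan and is a marker of activated T cells.

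Tregs are CD4+ T cells that restrain immune responses and depend on the transcription factor Foxp3. CHD8 is a chromatin remodeler of the CHD family, and the mice carry a Cre recombinase fused to yellow fluorescent protein at the X-linked Foxp3 locus, so that a floxed Chd8 gene is deleted in cells that express Foxp3. CD4+ T cells were taken from the spleens of 4 mice, 2 of each genotype, YFP+ cells were sorted from them, and 1 library was made for each mouse. According to the labels the Chd8-/- mice were CHD8Flox/FloxFoxp3YFP-Cre and the WT mice CHD8flox/floxFoxp3YFP-Cre/+, and all 4 had a Poly IC injection. The study describes its WT mice as Chd8+/+ littermates that carry the same Cre, and describes mice a few weeks old. The floxed Chd8 allele that the labels give for the WT mice is therefore not part of that description, which does include females with the Cre on 1 of their X chromosomes. If the labels hold, the YFP+ cells sorted from the WT mice carried both the Cre and a floxed Chd8 gene. WT is used below as the name of that group. The study also reports early, fatal inflammation in its Chd8-/- mice, and the part of disease in the values was not tested.

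Chd8 itself was listed at 14.9 and 11.4 TPM in Chd8-/- replicates 1 and 2, and at 24.7 and 27.6 TPM in WT replicates 1 and 2. TPM is a level scaled by gene length and library total. The labels name both a droplet-based assay, whose reads do not grow with gene length, and a bulk kit, so comparisons of level between different genes hold only if the reads covered whole transcripts. Xist was listed at 500.2 to 843.3 TPM and the Y-linked genes Ddx3y, Kdm5d, Uty and Eif2s3y at 0 in all 4 libraries, whereas the study describes both sexes in each genotype. The 7 Treg identity genes (Foxp3, Il2ra, Ctla4, Ikzf2, Ikzf4, Cd4 and Cd3e) summed to 3662.0 and 3085.1 TPM in the Chd8-/- libraries and to 3452.1 and 3500.3 TPM in the WT libraries, and Foxp3 was at 232.1 and 205.3 TPM against 202.8 and 215.4 TPM.

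The Chd8-/- libraries stood apart from WT on opposite sides in myeloid and in platelet and erythroid markers. The 10 myeloid markers summed to 2082.3 TPM in Chd8-/- replicate 2, to 36.4 TPM in Chd8-/- replicate 1, and to 311.7 and 321.0 TPM in WT. The 8 platelet and erythroid markers summed to 1942.8 TPM in Chd8-/- replicate 2, to 1.1 TPM in Chd8-/- replicate 1, and to 369.6 and 330.0 TPM in WT, and nearly all of it was haemoglobin, with the platelet gene Ppbp at 0 in every library. For both lists the WT libraries lay between the Chd8-/- libraries, so that the sums did not separate the genotypes. The 6 B cell markers summed to 35.5 and 139.6 TPM in Chd8-/- and to 43.8 and 29.7 TPM in WT, and the 8 CD8 and NK cell markers to 105.1 and 69.8 TPM against 123.5 and 84.6 TPM. Among single markers, S100a8 was at 5.3 and 16.5 TPM against 0 in both WT libraries, and Gzmb at 11.7 and 3.1 TPM against 35.6 and 27.6 TPM. The log2 fold changes of the 9 genes and the medians of the gene lists are given with and without Chd8-/- replicate 2, and single genes of the lists with all 4 libraries only. Leaving out replicate 2 does not even out these markers, since Chd8-/- replicate 1 held the lowest myeloid and the lowest platelet and erythroid sums. In bulk libraries, fewer cells of a type and less RNA per cell cannot be told apart.

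**Figure D1:**
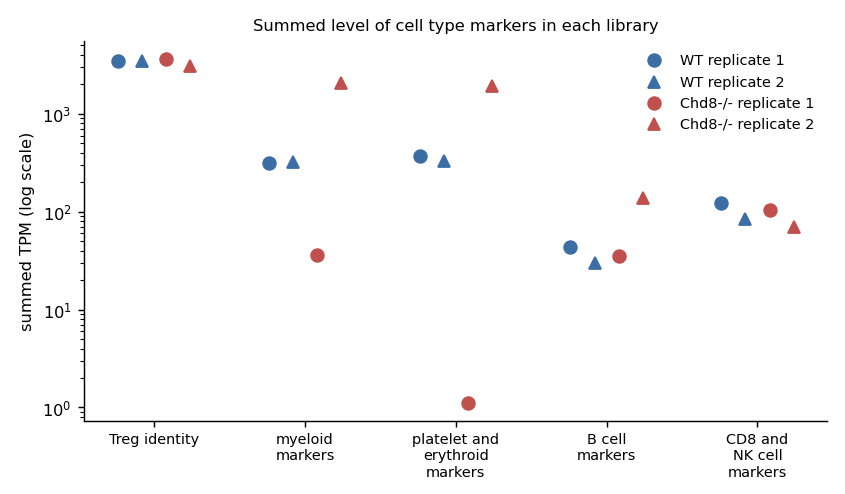
Summed TPM (log scale) of the Treg identity genes and of marker lists for other cell types in each library, with WT in blue, Chd8-/- in red, circles for replicate 1 and triangles for replicate 2. The Treg identity sums lie between 3085.1 and 3662.0 TPM, whereas the myeloid sums run from 36.4 to 2082.3 TPM, with both extremes in Chd8-/- libraries.

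Among the 9 genes, Itgae lay far higher in both Chd8-/- libraries, Cd44 slightly higher, and Itga4 and Itgb7 lower in both. The other 5 genes overlapped between the genotypes. Itgae had a mean of 109.8 ± 15.0 TPM (SD, n = 2) in Chd8-/- Tregs against 24.9 ± 2.69 TPM in the WT libraries, a ratio of 4.41. Itga4 had means of 295.0 ± 104.0 and 542.8 ± 7.28 TPM, a ratio of 0.543, and Itgb7 of 106.8 ± 53.2 and 169.5 ± 3.82 TPM, a ratio of 0.63.

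No gene passed the threshold of an adjusted p-value under 0.05 by limma with a log2 fold change of at least 1 in size, so 0.0% of the 15240 genes and 0 of the 9 were called, and the smallest adjusted p-value of any gene was 0.0807. At an unadjusted p-value under 0.05, 3.9% of all genes lay higher and 6.3% lower in Chd8-/- Tregs. Of the 9 genes, Itgae was in the first set and Itga4 in the second. By size, 5.12% of genes lay higher and 11.6% lower by 1 or more on the log2 scale, and of the 9 genes Itgae was in the first set and none in the second. The Chd8-/- libraries were both above the WT libraries for 14.8% of all genes and both below for 27.8%, and 2 of the 9 genes stood in each of these sets. The median log2 fold change was -0.15 over all genes and -0.07 over the 9. The 9 genes together summed to 1510.0 and 1112.9 TPM in Chd8-/- and to 1569.3 and 1597.7 TPM in the WT libraries.

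**Figure D2:**
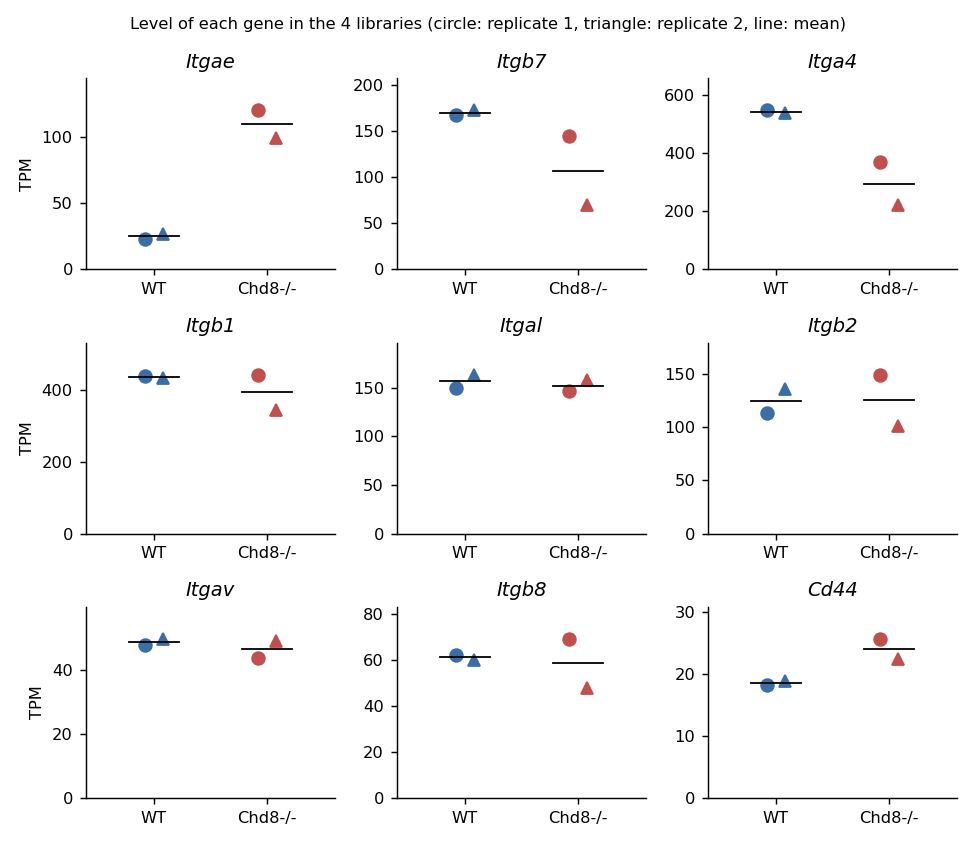
Level in TPM of each of the 9 genes in the 4 libraries, with a linear axis from 0, WT in blue, Chd8-/- in red, circles for replicate 1, triangles for replicate 2 and a line at the mean. Itgae sits at 99.2 and 120.4 TPM in the Chd8-/- libraries against 23.0 and 26.8 TPM in WT, and for Itgb7 and Itga4 the Chd8-/- replicate 2 is the lowest point.

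The alpha subunits Itga4 and Itgae and their shared partner Itgb7 are the genes on which the comparison turns, and the reference promoters of Itga4 and Itgb7 are shown because both genes lay lower in both Chd8-/- libraries. RefSeq promoters of GRCm38.p6, from 250 bases before to 50 bases after a gene's start, were found for 6 of the 9 genes, and Itgae, Itgal and Itgb2 had no entry in the table used. The windows are chr15:102231886-102232185 on the minus strand for Itgb7 and chr2:79255176-79255475 on the plus strand for Itga4, both written 5′ to 3′ along the gene. The Itgb7 window lies around the start of the curated mRNA at position 102231935, whereas the span of the gene given below runs further, to the start of a predicted model at position 102233405. Capitals mark the letters CACCC of KLF-type sites, GGAAG of ETS-type sites, TGTGGT of RUNX-type sites and CAGAC of SMAD-type sites, on either strand.
Itgb7: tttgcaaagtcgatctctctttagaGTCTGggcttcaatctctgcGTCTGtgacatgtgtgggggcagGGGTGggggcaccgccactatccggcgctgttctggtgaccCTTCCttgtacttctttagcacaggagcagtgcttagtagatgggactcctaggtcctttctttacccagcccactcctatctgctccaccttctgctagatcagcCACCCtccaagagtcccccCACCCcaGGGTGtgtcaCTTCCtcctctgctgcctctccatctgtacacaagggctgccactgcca
Itga4: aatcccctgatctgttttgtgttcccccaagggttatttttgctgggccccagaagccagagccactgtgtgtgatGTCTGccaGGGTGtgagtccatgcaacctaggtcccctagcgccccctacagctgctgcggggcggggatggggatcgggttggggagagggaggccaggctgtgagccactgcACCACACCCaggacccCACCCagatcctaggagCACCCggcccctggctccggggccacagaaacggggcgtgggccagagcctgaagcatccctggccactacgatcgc
The Itgb7 window held 4 KLF-type, 2 ETS-type and 2 SMAD-type matches and no RUNX-type match, at a GC content of 56.3%. The Itga4 window held 4 KLF-type matches, 1 RUNX-type match that overlaps a KLF-type match, 1 SMAD-type match and no ETS-type match, at a GC content of 64.3%. Of 32851 mouse promoters of the same length, 57.5% held a KLF-type match, 71.4% an ETS-type match, 16.8% a RUNX-type match and 49.6% a SMAD-type match. These shares count promoters with at least 1 match, so they do not show how common 4 matches are. The windows of Itgb8, Itgb1, Itgav and Cd44 held 3, 2, 1 and 0 KLF-type matches. These short motifs are common, and a match is a description only.

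Itgae encodes the alphaE chain of CD103, which marks T cells of epithelia and a subset of activated Tregs. It lies at chr11:73090505-73147449 on the plus strand (GRCm38.p6), with 31 exons in its longest curated mRNA. Its level was 120.4 and 99.2 TPM in Chd8-/- replicates 1 and 2, and 23.0 and 26.8 TPM in WT replicates 1 and 2. The groups were far apart, with Chd8-/- above. The log2 fold change of TPM + 1 was 2.09 (SE 0.23, 95% interval 1.47 to 2.72), with an unadjusted p-value of 0.00057 and an adjusted p-value of 0.373 by limma. This difference ranked 171 from the highest among the 15240 genes, and 121 among the 11301 of them with a mean of at least 5 TPM. It was 2.23 without Chd8-/- replicate 2. The part of RNA from other cells in the Itgae values was not tested.

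Inside Itgae lies the protein kinase gene Haspin, listed in the table as Gsg2, on the opposite strand at chr11:73135484-73138294. It shares no base with the curated exons of Itgae and 20 bp with the exons of all its annotated models. It was listed at 63.8 and 53.8 TPM in the Chd8-/- libraries against 18.8 and 15.5 TPM in the WT libraries, so it lay higher together with its host. Its log2 fold change was 1.72 (SE 0.26, adjusted p-value 0.373 by limma). Whether reads were counted by strand is not given in the sources used here, and without strand, reads from Itgae pre-mRNA and from Gsg2 cannot be told apart in this interval. The ratio of Gsg2 to Itgae was 0.53 and 0.542 in Chd8-/- and 0.817 and 0.578 in WT Tregs. The part of either gene in the value of the other was not tested.

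Itgb7 encodes the beta chain shared by CD103 and by the gut-homing integrin. It lies at chr15:102215994-102233405 on the minus strand, with 15 exons. The RNA was at 144.4 and 69.2 TPM in the Chd8-/- libraries against 166.8 and 172.2 TPM in the WT libraries. Both Chd8-/- libraries lay below the WT libraries, but replicate 1 was close to them and replicate 2 far below. The log2 fold change was -0.75 (SE 0.39, 95% interval -1.82 to 0.31, adjusted p-value 0.586 by limma). It was -0.23 without Chd8-/- replicate 2 and -1.28 without Chd8-/- replicate 1, so that 1 library sets most of its size.

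Itga4 encodes the alpha chain that pairs with either beta7 or beta1, and it was the most abundant of the 9 in WT Tregs. It lies at chr2:79255426-79333114 on the plus strand, with 28 exons. The 4 values were 368.4 and 221.5 TPM in the Chd8-/- libraries against 547.9 and 537.6 TPM in the WT libraries. The groups did not overlap, and replicate 2 was again the lower of the Chd8-/- libraries. The log2 fold change was -0.92 (SE 0.29, 95% interval -1.70 to -0.15, unadjusted p-value 0.0294, adjusted p-value 0.458 by limma). It was -0.56 without Chd8-/- replicate 2 and -1.29 without Chd8-/- replicate 1. That replicate 2 carried the highest and replicate 1 the lowest sums of myeloid and haemoglobin markers is a measured fact beside the Itga4 and Itgb7 values. Its part in them was not tested.

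The retinal gene Cerkl overlaps the last exon of Itga4 by 166 bp on the opposite strand. It was listed at 16.7 and 9.1 TPM in the Chd8-/- libraries against 22.4 and 22.2 TPM in the WT libraries. The ratio of Cerkl to Itga4 was 0.0453 and 0.0411 in Chd8-/- and 0.0409 and 0.0413 in WT Tregs, nearly the same in every library. Reads in the shared stretch cannot be assigned to 1 gene if strand was not used.

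Itgb1 encodes the common beta chain of the VLA integrins, which bind fibronectin, laminin, collagen and VCAM-1. It lies at chr8:128685654-128733579 on the plus strand. Its RNA was found at 442.6 and 344.8 TPM in the Chd8-/- libraries against 440.0 and 433.3 TPM in the WT libraries. Chd8-/- replicate 1 was level with WT and replicate 2 lay below, so that the groups overlapped. The log2 fold change was -0.16, and the 95% interval of -0.67 to 0.35 holds differences in either direction (adjusted p-value 0.799 by limma). Without Chd8-/- replicate 2 the sign turned, to 0.02.

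Itgal and Itgb2 encode the chains of LFA-1, the integrin with which T cells hold on to antigen-presenting cells and cross vessel walls. Itgal lies at chr7:127296139-127335137 and Itgb2 at chr10:77530329-77565708, both on the plus strand. Itgal was listed at 146.0 and 157.4 TPM in the Chd8-/- libraries against 149.9 and 163.3 TPM in the WT libraries. Its log2 fold change was -0.05, with the narrowest 95% interval of the 9 genes, -0.51 to 0.42 (adjusted p-value 0.948 by limma), and it was -0.10 without Chd8-/- replicate 2. Itgb2, which all leukocytes including myeloid cells express, was listed at 149.4 and 101.0 TPM in the Chd8-/- libraries against 113.1 and 135.7 TPM in the WT libraries. The Chd8-/- libraries lay on either side of both WT libraries, and the log2 fold change was -0.01 (95% interval -0.74 to 0.72, adjusted p-value 0.992 by limma). Without Chd8-/- replicate 2 it turned to 0.27. The part of RNA from myeloid cells in the Itgb2 values was not tested.

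Itgav and Itgb8 encode the chains of the TGF-beta activating integrin of Tregs. Itgav lies at chr2:83722303-83806917 on the plus strand and Itgb8 at chr12:119162803-119238276 on the minus strand. Itgav was listed at 43.8 and 49.2 TPM in the Chd8-/- libraries against 47.8 and 49.8 TPM in the WT libraries, so that all 4 libraries lay close together. Its log2 fold change was -0.07 (95% interval -0.64 to 0.50, adjusted p-value 0.927 by limma), and it was -0.15 without Chd8-/- replicate 2. Itgb8 was listed at 69.3 and 48.1 TPM in the Chd8-/- libraries against 62.5 and 60.1 TPM in the WT libraries, with the WT libraries between the Chd8-/- libraries. Its log2 fold change was -0.08 (95% interval -0.79 to 0.62, adjusted p-value 0.931 by limma), and without Chd8-/- replicate 2 it turned to 0.17.

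Cd44 lies at chr2:102811141-102901669 on the minus strand, with 6 curated mRNAs that share their reads in a gene-level value. Its values were 25.7 and 22.5 TPM in the Chd8-/- libraries against 18.3 and 18.9 TPM in the WT libraries, the least abundant of the 9 in both genotypes. The groups were apart by a small margin, with Chd8-/- above. The log2 fold change was 0.35 (SE 0.26, 95% interval -0.34 to 1.05, adjusted p-value 0.681 by limma), and it was 0.45 without Chd8-/- replicate 2. The groups being apart in 2 libraries each is what 14.8% of all genes show in this direction.

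**Figure D3:**
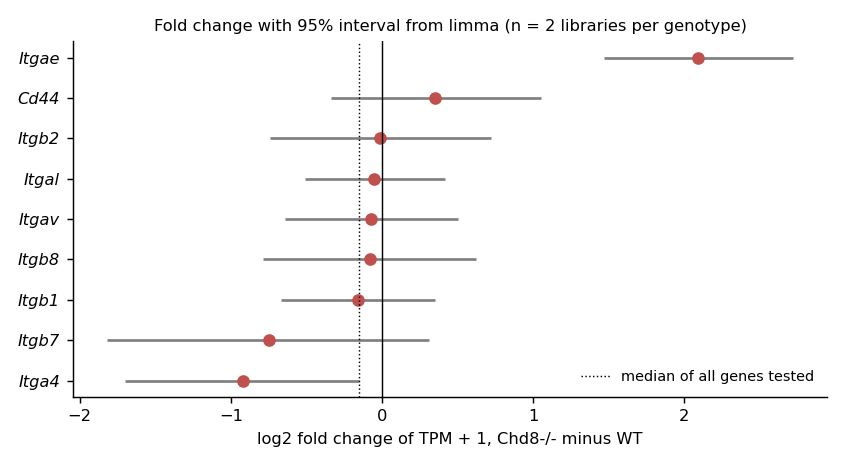
Log2 fold change of TPM + 1, Chd8-/- minus WT, for each of the 9 genes (points) with its 95% interval from limma (lines, n = 2 libraries per genotype) and the median of all genes tested (dotted). The intervals of Itgae (1.47 to 2.72) and Itga4 (-1.70 to -0.15) lie to 1 side of 0, and those of the other 7 genes hold 0.

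The order of the levels, read under the limit on comparing genes given above, was not the same in the genotypes. In WT Tregs it ran, from the highest mean TPM, Itga4, Itgb1, Itgb7, Itgal, Itgb2, Itgb8, Itgav, Itgae and Cd44, and the ranges of neighbours in this order did not overlap. In Chd8-/- Tregs it ran Itgb1, Itga4, Itgal, Itgb2, Itgae, Itgb7, Itgb8, Itgav and Cd44. There, the ranges of neighbours across the 2 libraries overlapped except between Itga4 and Itgal and between Itgav and Cd44. Within each Chd8-/- library, however, Itgb1 lay above Itga4, Itgb2 above Itgae and Itgb7 above Itgb8. The order of Itgal and Itgb2, of Itgae and Itgb7, and of Itgb8 and Itgav differed between the 2 Chd8-/- libraries. Itgae stood next to last in WT and in the middle of the order in Chd8-/- Tregs.

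Ratios of partner subunits within a library set Itgae against the chain it needs. The TPM ratio of Itgae to Itgb7 was 0.834 and 1.43 in Chd8-/- and 0.138 and 0.156 in WT Tregs, so that the ratio was well below 1 in both WT libraries and on either side of 1 in the Chd8-/- libraries. How far the ratio itself stands for molecules depends on the limit above, whereas its difference between libraries does not. The log2 ratio of TPM + 1 was 2.85 higher in Chd8-/- Tregs (SD between replicates 0.55 in Chd8-/- and 0.12 in WT), and 2.46 higher without Chd8-/- replicate 2. The groups were apart, and the exact permutation p-value (two-sided) was 0.333, the smallest that 2 against 2 libraries can give.

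The ratio of Itga4 to Itgb7 was 2.55 and 3.20 in Chd8-/- and 3.28 and 3.12 in WT Tregs, and the groups overlapped, with a log2 difference of -0.17 and an exact permutation p-value of 0.667. The difference was smaller than the spread between the Chd8-/- libraries (SD 0.23 on the log2 scale). Against Itgb1, both chains lay lower. The ratio of Itga4 to Itgb1 was 0.832 and 0.642 in Chd8-/- and 1.25 and 1.24 in WT Tregs, a log2 difference of -0.76 that was -0.58 without Chd8-/- replicate 2. The ratio of Itgb7 to Itgb1 was 0.326 and 0.201 against 0.379 and 0.397, a log2 difference of -0.59 that was -0.25 without that replicate. Both pairs were apart between the genotypes, each at an exact permutation p-value of 0.333.

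The chains of LFA-1 and of the TGF-beta activating integrin showed no such separation. The ratio of Itgal to Itgb2 was 0.977 and 1.56 in Chd8-/- and 1.33 and 1.2 in WT Tregs. The ratio of Itgav to Itgb8 was 0.632 and 1.02 against 0.765 and 0.829, and that of Itgav to Itgb1 was 0.099 and 0.143 against 0.109 and 0.115. In these 3 pairs the WT libraries lay between the Chd8-/- libraries, and the log2 differences were -0.03, 0.01 and 0.09. The spread between the Chd8-/- libraries (SD 0.47, 0.48 and 0.37) was larger than each difference.

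**Figure D4:**
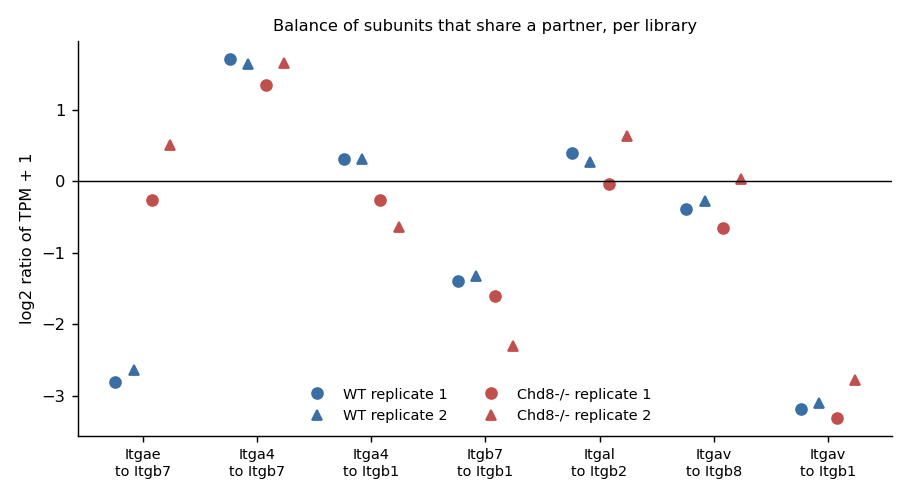
Log2 ratio of TPM + 1 of paired subunits in each library, with WT in blue, Chd8-/- in red, circles for replicate 1 and triangles for replicate 2. Itgae to Itgb7 sits at -2.81 and -2.64 in WT and at -0.26 and 0.51 in Chd8-/-, and Itga4 to Itgb7 sits at 1.71 and 1.64 in WT and at 1.35 and 1.66 in Chd8-/-.

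Likeness to other genes was measured over the 4 libraries as the distance between log2(TPM + 1) values centred on their mean, among genes with a mean of at least 5 TPM. No gene lay within a distance of 0.3 of Itgae. The nearest were Tctex1d2 at 0.32 and Gm30510 and Gm10409 at 0.33. Around Itga4, 200 genes lay within 0.3, led by Rnf220 at 0.05, Snx13 at 0.06 and Klhl18 at 0.07, and around Itgb7 218 genes, led by Rab2a at 0.06, Tmem126a at 0.07 and Cd247 at 0.09. For the other 6 genes, 719 to 1618 genes lay within that distance. Among the 9 themselves, Itgal and Itgav were closest, at 0.07, Itgb1 and Itgb8 lay at 0.14, and Itga4 and Itgb7 at 0.29, whereas the nearest to Itgae was Cd44 at 1.75. This distance grows with the size of a difference, so that a gene with a large difference has fewer neighbours and a flat gene has many.

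Other integrin subunits, most of them partners of the 9, were mostly low. Of 18 such genes 12 were tested and none was called. The genotypes were apart, with Chd8-/- above for 1 and below for 4 of the 12, beside 14.8% above and 27.8% below over all genes. The median log2 fold change was -0.43 (-0.15 over all genes) and -0.89 without Chd8-/- replicate 2 (-0.04 over all genes). Itga5, the fibronectin receptor chain that pairs with Itgb1, was listed at 7.8 and 7.2 TPM in the Chd8-/- libraries against 4.0 and 4.2 TPM in the WT libraries. Itga6, the laminin receptor chain that also pairs with Itgb1, was at 28.1 and 17.4 TPM against 38.5 and 44.1 TPM. Itgb3, a partner of Itgav in the vitronectin receptor, was at 17.2 and 11.9 TPM against 26.7 and 28.4 TPM, with a log2 fold change of -0.90 (adjusted p-value 0.471 by limma). The groups of these 3 genes did not overlap. Of the partners of Itgb2, Itgam was at 0.2 and 3.1 TPM against 0.7 and 2.1 TPM, and Itgad, known from splenic macrophages, at 0 and 5.6 TPM against 12.4 and 14.0 TPM.

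Genes that switch integrins from low to high affinity or tie them to actin were described from a list of 26, of which 21 were tested and none was called. In 2 both Chd8-/- libraries lay above and in 8 below both WT libraries, beside 14.8% and 27.8% of all genes. The median log2 fold change of -0.17 was near that of all genes, -0.15, and was -0.13 without Chd8-/- replicate 2. Rasgrp2, an exchange factor that activates Rap1, was listed at 5.0 and 3.1 TPM in the Chd8-/- libraries against 13.4 and 14.5 TPM in the WT libraries (log2 fold change -1.59, adjusted p-value 0.424 by limma). Its target Rap1b was at 627.3 and 442.1 TPM against 539.3 and 636.0 TPM, with overlapping groups. Itgb1bp1, which binds the tail of beta1 and holds it inactive, was at 22.4 and 10.9 TPM against 31.4 and 38.3 TPM (log2 fold change -1.10, adjusted p-value 0.498 by limma). Tln1, the talin that binds integrin tails, was at 67.0 and 48.9 TPM against 64.6 and 66.7 TPM. Fermt3, the kindlin of blood cells, was at 88.7 and 84.2 TPM against 100.7 and 88.9 TPM. The 2 genes with both Chd8-/- libraries above, named here after their values were seen, were Ilk and Sharpin. Ilk was at 44.0 and 57.5 TPM against 34.6 and 33.3 TPM, and Sharpin at 35.2 and 40.3 TPM against 27.4 and 17.9 TPM.

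The ligands and the TGF-beta route were measured in the same libraries. Of 17 ligand and latent TGF-beta genes 7 were tested, and E-cadherin (Cdh1), the ligand of CD103, was among those not tested, at 3.0 and 0.1 TPM against 0.4 and 0.3 TPM. None of the 7 was called, and 2 lay above and 1 below in both Chd8-/- libraries, beside 14.8% and 27.8% of all genes. Their median log2 fold change was 0.12, and 0.0 without Chd8-/- replicate 2. The ICAM genes tested are named here after their values were seen. Icam1 was at 63.4 and 65.4 TPM in the Chd8-/- libraries against 60.2 and 58.5 TPM in the WT libraries. Icam2 overlapped, at 12.3 and 5.3 TPM against 19.8 and 11.3 TPM. The gene below was Icam4, a low gene at 0 in both Chd8-/- libraries against 3.9 and 12.4 TPM. Vcam1 was at 4.9 and 162.6 TPM in the Chd8-/- libraries against 100.2 and 107.7 TPM in the WT libraries, in the same order of libraries as the myeloid and haemoglobin markers at both extremes. Lrrc32, which encodes GARP, was at 179.6 and 169.7 TPM against 116.8 and 117.1 TPM (log2 fold change 0.57, unadjusted p-value 0.024, adjusted p-value 0.449 by limma), with both Chd8-/- libraries above. Its cargo Tgfb1 overlapped between the genotypes, at 143.7 and 166.0 TPM against 120.2 and 151.3 TPM.

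Of 11 TGF-beta receptor and Smad genes, all tested and none called, 6 lay below and 1 above in both Chd8-/- libraries, beside 27.8% and 14.8% of all genes, at a median log2 fold change of -0.28 that was -0.16 without Chd8-/- replicate 2. TGF-beta is a known inducer of CD103 in T cells. Tgfbr1 was at 32.7 and 32.1 TPM in the Chd8-/- libraries against 42.0 and 41.8 TPM in the WT libraries. Tgfbr2 was at 84.8 and 89.0 TPM against 84.3 and 79.4 TPM. Tgfbr3, a co-receptor, was at 5.6 and 4.8 TPM against 23.1 and 14.8 TPM (log2 fold change -1.66, adjusted p-value 0.409 by limma).

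Of 21 other adhesion receptors and partners 19 were tested and none was called, with 8 above and 4 below in both Chd8-/- libraries, beside 14.8% and 27.8% of all genes. The median log2 fold change was -0.07, and it turned to 0.14 without Chd8-/- replicate 2. Epcam was at 42.0 and 49.0 TPM against 19.3 and 21.4 TPM (log2 fold change 1.12, adjusted p-value 0.403 by limma), the junction protein Jam3 at 8.1 and 14.2 TPM against 3.3 and 3.7 TPM, and the tetraspanin Cd9 at 17.1 and 10.0 TPM against 51.7 and 34.6 TPM. The groups of all 3 were apart.

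An unadjusted p-value under 0.05 by limma was found for 3.9% of all genes with Chd8-/- higher and for 6.3% with Chd8-/- lower. The counts were 0 higher and 1 lower of the 12 other integrin subunits tested, 0 and 1 of the 21 activators and adaptors, 1 and 1 of the 7 ligands, 0 and 1 of the 11 TGF-beta receptors and Smads, and 3 and 2 of the 19 other adhesion receptors.

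Treg state markers were set beside the adhesion genes because Cd44 is a usual surface marker of effector Tregs. Of 14 effector Treg markers, all tested and none called, 10 lay above and none below in both Chd8-/- libraries, beside 14.8% and 27.8% of all genes, at a median log2 fold change of 0.75 that was 0.88 without Chd8-/- replicate 2. Icos was at 254.0 and 212.5 TPM against 110.0 and 110.3 TPM, Batf at 502.4 and 784.6 TPM against 231.1 and 207.1 TPM, Ccr8 at 101.1 and 86.2 TPM against 26.8 and 49.4 TPM, and Prdm1 at 11.4 and 17.6 TPM against 5.3 and 6.6 TPM. Of the 4 effector markers whose groups overlapped, 3 had a log2 fold change below 0 and are named here after their values were seen. Il10 was at 3.8 and 1.7 TPM against 2.8 and 19.4 TPM, a log2 fold change of -1.29, Pdcd1 at 93.7 and 84.5 TPM against 90.6 and 144.0 TPM, and Rora at 12.9 and 6.7 TPM against 11.6 in both WT libraries. These counts depend on which genes the list holds, and the lists were chosen with earlier results of these data known. Klrg1 and Gzmb were counted in other lists, and both lay lower in both Chd8-/- libraries. Klrg1, also named after its values were seen, was at 42.4 and 53.5 TPM against 101.5 and 82.0 TPM. Of 9 resting Treg markers, all tested and none called, 5 lay below and 2 above, beside 27.8% and 14.8% of all genes, at a median of -0.46 that was -0.51 without Chd8-/- replicate 2. Bach2 was at 7.0 and 8.1 TPM against 19.2 and 24.6 TPM, whereas Il7r went the other way, at 504.5 and 366.8 TPM against 149.7 and 126.7 TPM (log2 fold change 1.64, adjusted p-value 0.373 by limma). At an unadjusted p-value under 0.05 by limma, 9 effector markers were higher and 0 lower, and 1 resting marker was higher and 4 lower, beside the 3.9% and 6.3% of all genes. By sign alone, Itgae and Cd44 lay on the side of most effector markers, and Itga4 and Itgb7 on that of most resting markers. The 95% interval of Cd44 from limma ran from -0.34 to 1.05, and Itgb7 was at -0.23 without Chd8-/- replicate 2. The lower side was also the more common over all genes. A link between these genes and Treg state was not tested.

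**Figure D5:**
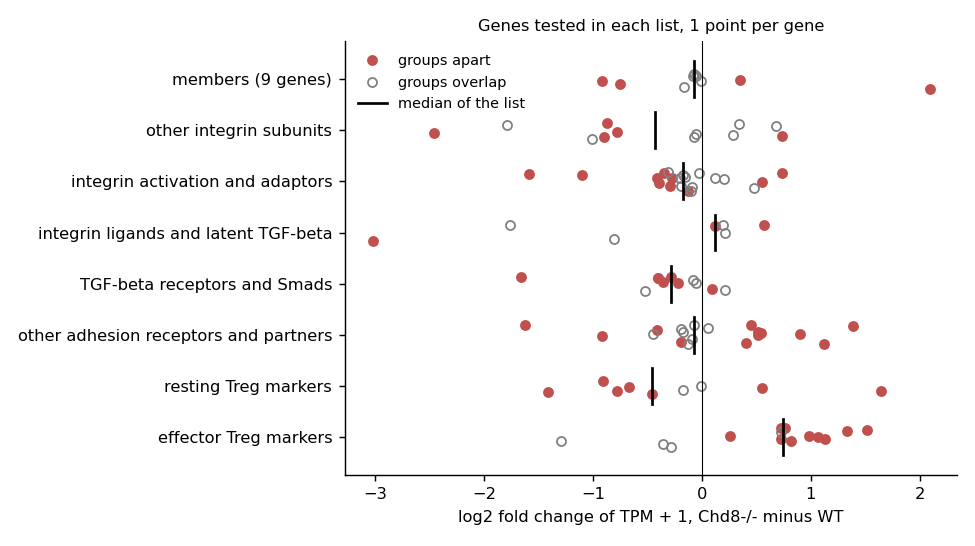
Log2 fold change of TPM + 1, Chd8-/- minus WT, of every tested gene of each list (1 point per gene, filled where the 2 Chd8-/- libraries lie wholly above or below the 2 WT libraries, open where they overlap), with a bar at the list median. The 9 member genes have a median of -0.07 with Itgae alone above 2, and the effector Treg markers have a median of 0.75.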

How the data were processed

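RNA-seq values of YFP+ Tregs from 2 WT and 2 Chd8-/- mice were analysed, grouped by their titles. The authors trimmed the reads with Trim Galore 0.4.2 and cutadapt 1.9.1, aligned them to mm10 with STAR 2.6.1e, removed duplicates (sambamba), assigned reads to RefSeq genes with featureCounts 1.6.2 and deposited TPM rounded to 0.1. Depth behind the values was not derived here, so no counting error is given. The labels name both a droplet-based assay and a bulk RNA-seq kit, which differ in how TPM relates to gene length. The table lists 35869 names, and 4 rows whose names occur more than once were dropped. Genes that reached 1 TPM in 2 or more libraries were compared as log2(TPM + 1) by limma 3.58.1 (R 4.3.3), with lmFit and a trended eBayes, two-sided, with p-values adjusted by Benjamini-Hochberg over 15240 genes, and the script was tested on simulated data. Fold changes on this scale understate those of low genes. Calls needed an adjusted p-value under 0.05 and a log2 fold change of 1. The mice are the replicates. The limma p-values rest on the spread between 2 libraries per genotype, moderated by the spread over all genes tested. Subunit ratios were compared by exact permutation tests. Tables, ratios and figures used Python 3.11.15, numpy 2.4.6, pandas 2.3.3, scipy 1.17.1 and matplotlib 3.10.9.

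The 9 genes and the lists were chosen with earlier results of these data known. Named genes are the 9, list genes with a log2 fold change of at least 1 in size, groups apart and a mean of at least 5 TPM, partners of the 9, and the 3 most alike genes. Treg identity genes and single receptors of the TGF-beta route are named as markers and partners. Gene positions and promoters came from RefSeq (GRCm38.p6). Tables of ATAC-seq and CHIP-seq peaks lie in another build (mm39) and were not used here. Alternatives were a pseudocount of 0.1 or 5 TPM, dropping the filter or asking for a mean of 5 TPM or more, quantile normalization, the median log2 fold change set to 0, a replicate block, eBayes without trend and each library left out. Scaling to the Treg identity genes and the list medians without Chd8-/- replicate 2 were added after the data were seen. Results of 1 further list are not reported here.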

Additional observations from a re-analysis of the deposited data

How the results depend on the processing

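Over 13 alternatives the log2 fold change of Itgae ran from 1.94 to 2.24, of Itga4 from -1.29 to -0.56, of Itgb7 from -1.28 to -0.23 and of Cd44 from 0.26 to 0.51, with no change of direction, and none of the 9 genes was called under any of them. With a mean TPM of at least 5, limma called 2 genes of the whole table, neither of them a member, and 0 under the other alternatives. The smallest adjusted p-value of any gene ran from 0.0347 to 0.971.

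By 1 or more on the log2 scale, 781 genes lay higher and 1768 lower. With a pseudocount of 5 TPM these were 362 and 690, and with a mean TPM of at least 5 1149 lay lower. Leaving out each library in turn gave 989 to 1371 genes higher and 1446 to 3107 lower, with the highest values without Chd8-/- replicate 1. Of the 9 genes, 1 (Itga4) lay lower by 1 or more on this scale under quantile normalization, and 0 to 2 when a library was left out. The medians of all genes shifted from -0.15 to 0 when centred, and then Itgal was at 0.11, Itgb2 at 0.14, Itgav at 0.08 and Itgb8 at 0.07, the reverse of their signs above. Scaled to the Treg identity genes, Itgb2 was at 0.02. With a library left out, Itgb1 ran from -0.34 to 0.02, Itgal from -0.11 to 0.02, Itgb2 from -0.29 to 0.27, Itgav from -0.15 to 0.01 and Itgb8 from -0.34 to 0.17, and the signs of Itgb1, Itgb2 and Itgb8 turned without Chd8-/- replicate 2. The log2 differences of ratios ran from -0.37 to 0.30 for Itgal to Itgb2, from -0.33 to 0.36 for Itgav to Itgb8 and from -0.17 to 0.35 for Itgav to Itgb1. The causes were not tested.

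Replicate numbers were not taken to pair the libraries. The deviations of same-numbered libraries correlated at -0.012, which cannot show whether those mice were littermates or were processed together. With the replicate block, 0 genes were called, 781 and 1768 genes passed the fold threshold, and 1336 genes had an unadjusted p-value under 0.05 against 1555 without it. That count of 1555 was 3181 without Chd8-/- replicate 1, 560 without WT replicate 1 and 587 without WT replicate 2. The planned values of open chromatin and CHD8 peaks at these genes were not run, since gene positions in the build of the peaks were not used here. With 2 libraries per genotype and depth not derived, differences as small as those of Itgb1, Itgal, Itgb2, Itgav and Itgb8 were not detectable.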
